A study of Homo sapiens with 6 samples.

Results

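The cluster of miR-532, miR-188 and the miR-500 relatives is a row of microRNA (miRNA) genes inside CLCN5 on the X chromosome. Its mature products were compared in Huh7 cells with and without a plasmid for the circular RNA hsa_circ_0098181. The members were chosen by name, as 10 mature miRNAs of the cluster among the 2588 in the deposited table, at a time when the differences between these groups were already known. The values of the members between the groups are therefore descriptions, and no test of the members is offered as support.

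The study asked what hsa_circ_0098181 does in hepatocellular carcinoma, and sequenced the miRNAs of transfected cells to look for those it might bind. Huh7 is an established human hepatoma line. In the overexpression group, 3 samples received the plasmid carrying hsa_circ_0098181, and in the control group 3 samples received the control plasmid. Transfection was done with Lipofectamine and the cells were collected after 48 h, so both groups share the reagent and the time. The libraries held 7978507, 8469016 and 8289232 miRNA counts for overexpression replicates 1 to 3, against 10786295, 8677214 and 7144798 for control replicates 1 to 3. The labels do not say that the samples came from separate cultures, so p-values measure only the spread between these samples, which may be technical.

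A miRNA cluster is usually copied as a single long RNA, from which the nuclear enzyme Drosha cuts hairpins. Dicer then trims each hairpin to a short duplex of a 5p and a 3p strand, and Argonaute keeps mostly one of them as the guide that pairs with target messengers through its seed, bases 2 to 8. The final amount of each product thus depends on transcription, cutting, strand choice and decay, and neighbours on the same RNA can reach very different levels. CLCN5 encodes an endosomal chloride/proton exchanger best known from Dent disease, an inherited kidney disorder.

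The mature sequences are shown because several members are so alike that reads may be hard to assign between them, and because the seeds set which members could share targets. In the RefSeq table for GRCh38.p14, 9 of the 10 members were matched by name. They are printed 5′ to 3′ in locus order, with the seed in capitals.
hsa-miR-532-5p: cAUGCCUUgaguguaggaccgu
hsa-miR-532-3p: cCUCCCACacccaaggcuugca
hsa-miR-188-5p: cAUCCCUUgcaugguggaggg
hsa-miR-500a-5p: uAAUCCUUgcuaccugggugaga
hsa-miR-500a-3p: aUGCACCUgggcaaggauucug
hsa-miR-362-5p: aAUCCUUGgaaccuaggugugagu
hsa-miR-501-5p: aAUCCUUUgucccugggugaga
hsa-miR-501-3p: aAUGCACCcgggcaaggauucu
hsa-miR-502-3p: aAUGCACCugggcaaggauuca
The remaining member is hsa-miR-660-5p. The prefix hsa, for human, is left out from here on.

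Among these members, miR-501-3p and miR-502-3p shared the seed AUGCACC, and each of the other 7 had a seed of its own. No further mature miRNA in the table of 2370 carried AUGCACC. Beyond the members, miR-362-5p shared its seed with miR-500b-5p of the same locus, and miR-188-5p shared its seed with miR-6866-3p. The seeds of the other matched members were found in no further mature miRNA. Counted from 1 at the 5′ end of miR-502-3p, miR-501-3p differed from it by U9C and A22U. The first 20 bases of miR-500a-3p also stand in miR-502-3p, moved by 1 base, so its seed UGCACCU is the same stretch read from the next base. The seeds of miR-362-5p, miR-501-5p and miR-500a-5p likewise overlap in AUCCUU. miR-500b-5p, another product of the locus, is 18 bases long and lies wholly within miR-500a-5p. How reads that match several miRNAs were counted is not given in the sources used here, so the split of counts among miR-500a, miR-500b, miR-501 and miR-502 is uncertain. miR-532-5p, miR-532-3p and miR-188-5p share no run of 8 or more bases with any other member printed here.

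In GENCODE release 29 (GRCh38), CLCN5 (ENSG00000171365.16) lies on the plus strand of chromosome X from 49922615 to 50099235. Its 8 miRNA precursors stand on the same strand and span 11536 bases. MIR532 comes first, from 50003148 to 50003238, and MIR188 follows after 264 bases, from 50003503 to 50003588. Further on lie MIR500A (50008431 to 50008514), MIR362 (50008964 to 50009028), MIR501 (50009722 to 50009805) and MIR500B (50010672 to 50010750). The row ends with MIR660 (50013241 to 50013337) and MIR502 (50014598 to 50014683). Of the 9 annotated CLCN5 transcripts, 3 span the precursors, and in all 3 the whole cluster sits in a single intron, from 49925315 to 50042315. No exon of CLCN5 overlaps a precursor, and 0 other annotated genes overlap the cluster. The RNA of CLCN5 itself was not measured in these libraries.

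Control replicate 3 stood apart from the other controls. Over 192 abundant miRNAs (at least 50 counts scaled to a common library total, CPM), the median absolute log2 difference was 0.055 between control replicates 1 and 2, but 0.21 and 0.20 between control replicate 3 and these. To overexpression replicates 1, 2 and 3 the same measure from control replicate 3 was 0.13, 0.21 and 0.17, so this library was nearer to overexpression replicates 1 and 3 than to either of the other controls. It also had the smallest library and the highest scaling factor by the trimmed mean of M-values (TMM), at 1.09, against 1.00 and 1.03 in the other controls and 0.996, 0.921 and 0.967 in overexpression replicates 1 to 3. In control replicate 3, 8 of the 10 members were above both other controls and 2, miR-188-5p and miR-660-5p, were below both. Over all 552 miRNAs tested, 39.1% were above and 40.0% below. The comparisons of the members between the groups are therefore given with and without it, and its part in the differences was not tested.

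The cluster was well expressed, but its members differed 456-fold in level. Levels are given as the deposited TPM, which here is the count scaled to the library total, as CPM is, with no correction for length, and the printed mature forms run only from 21 to 24 bases. miR-532-5p was the most abundant member at 2560 ± 237 TPM (SD, n = 6 samples) and ranked number 35 among all miRNAs. miR-660-5p came next at 2338 ± 73.2 TPM and rank 37. Their ranges over the 6 samples overlapped, with miR-532-5p above miR-660-5p in 4 of 6 samples. A wide step led down to miR-500a-3p at 282 ± 26.9 TPM, which overlapped neither neighbour in the order.

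Below it, miR-532-3p had 153 ± 27.6 TPM and miR-362-5p 132 ± 16.7 TPM (SD, n = 6 for both). These ranges overlapped, although miR-532-3p was the higher of the pair in 6 of 6 samples. miR-502-3p, at 85.8 ± 12.5 TPM, was clear of its neighbours on both sides. miR-188-5p (35.7 ± 8.20 TPM), miR-501-3p (31.3 TPM, from 23.9 to 45.6) and miR-500a-5p (28.8 ± 3.63 TPM) formed a group whose ranges overlapped from one to the next. miR-501-5p was lowest, at 5.61 ± 1.34 TPM. For miR-501-5p the counting error alone reached 16.4% of the value in 1 library, against 0.731% for miR-532-5p, which were the largest and the smallest among the members.

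**Figure D1:**
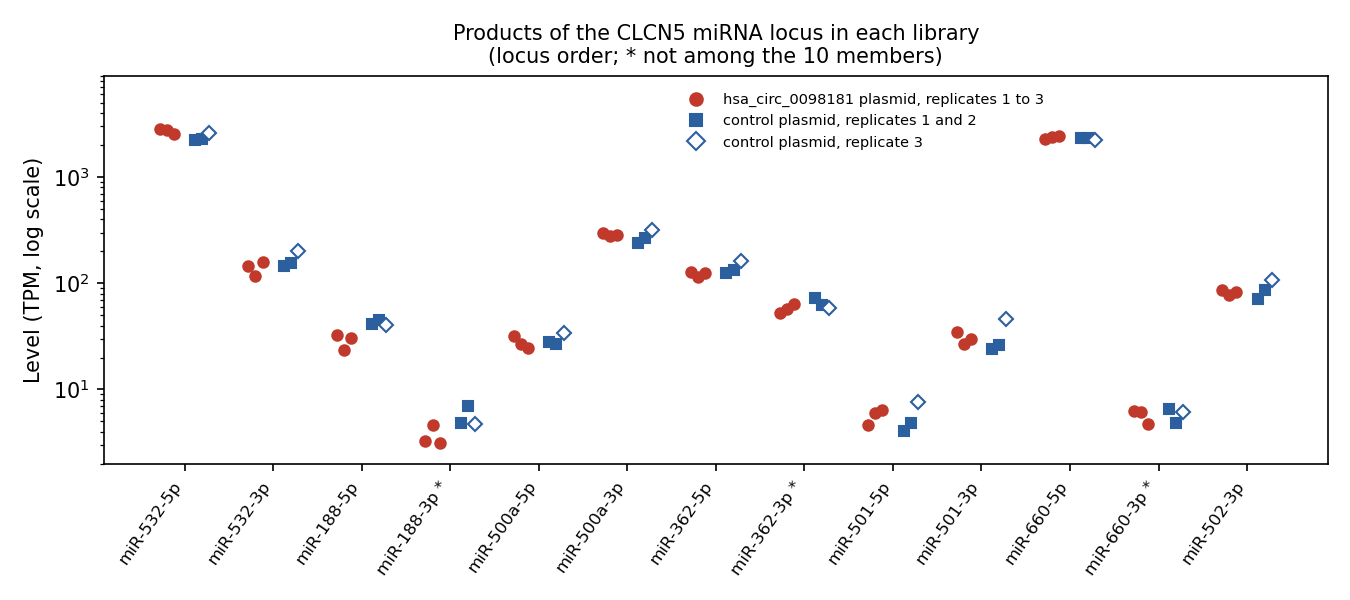
Level of each tested product of the cluster in each of the 6 libraries, in locus order, in TPM on a log axis; circles are overexpression samples, squares control replicates 1 and 2, and open diamonds control replicate 3. miR-532-5p and miR-660-5p lie between 2247 and 2818 TPM in every sample, and the lowest member, miR-501-5p, has a mean of 5.61 TPM.

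The table also held 6 further products of the locus that are not among the members. miR-362-3p, miR-188-3p and miR-660-3p passed the filter on low counts, as did all 10 members. The remaining ones were close to absent, with 22 counts for miR-500b-3p, 4 for miR-502-5p and 1 for miR-500b-5p over all 6 libraries. A count of 0 in a library allows up to 3 counts, or 0.278 to 0.420 TPM at these depths, and covers counting error only.

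Which strand of the hairpin prevailed differed from precursor to precursor and was the same in all 6 samples. The 5p strand was the more abundant in the first precursors of the row, by a geometric mean of 16.8-fold for miR-532 and 7.77-fold for miR-188. It was also the more abundant for miR-362, by 2.14-fold, and for miR-660, by 403-fold. The 3p strand prevailed for miR-500a, by 9.80-fold, and for miR-501, by 5.51-fold. For miR-502 the 3p strand had 4343 counts in total and the 5p strand 4. The 3p strand was also ahead for miR-500b, though on 22 against 1 counts. The read assignment among miR-500a, miR-500b, miR-501 and miR-502 is uncertain, and so are their ratios.

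**Figure D2:**
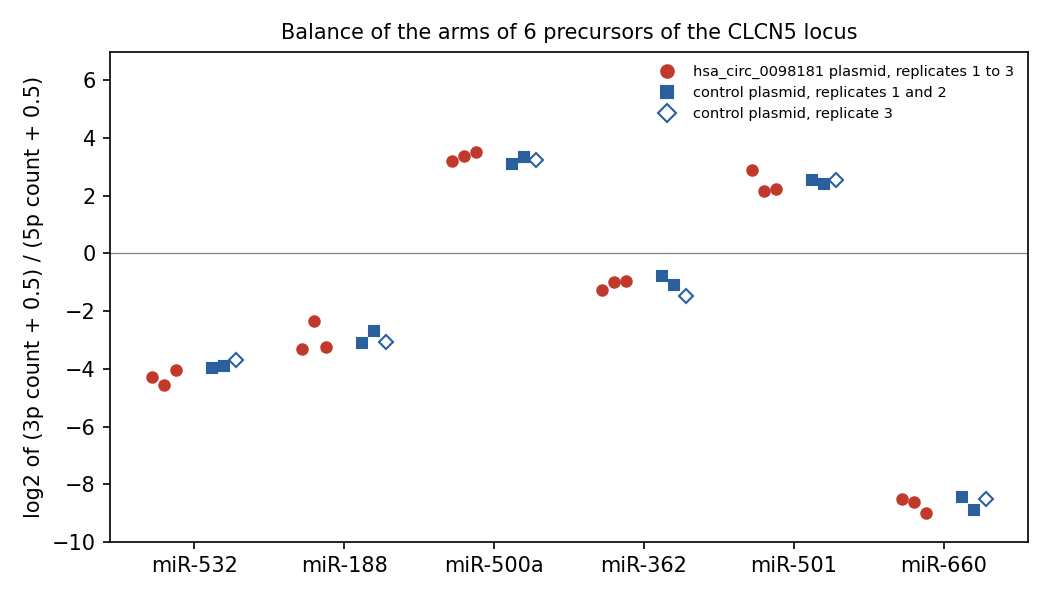
Balance between the strands of 6 precursors, as log2 of the 3p count over the 5p count with 0.5 added to each; symbols mark the samples as in the plot of levels, and 0 is equal abundance. All samples of miR-500a and miR-501 lie above 0 and all samples of miR-532, miR-188, miR-362 and miR-660 below it, the latter between -9.00 and -8.45.

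The comparison of the groups asked how the miRNAs differed once hsa_circ_0098181 was overexpressed. With TMM scaling, 7 of the 10 members were higher with the hsa_circ_0098181 plasmid and 3 were lower, whereas with the library size alone 4 were higher and 6 lower. Under TMM, their log2 fold changes ran from -0.45 to 0.31, with a median of 0.058. The median over all 552 miRNAs tested was 0.0038, of which 281 were higher. With all 6 samples, miR-532-5p had the highest log2 fold change among the members and miR-188-5p the lowest, although their precursors are neighbours. Without control replicate 3, miR-501-5p (0.43) and miR-501-3p (0.36) were above miR-532-5p (0.32), and without overexpression replicate 1 miR-501-5p (0.34) was above it (0.31). With edgeR's quasi-likelihood test, 0 of the 10 members and 0 of all 552 miRNAs (0%) had a Benjamini-Hochberg adjusted p under 0.05. At an unadjusted p under 0.05, edgeR gave 2 members, miR-532-5p and miR-188-5p, and 50 of all miRNAs (9.06%). DESeq2 and limma also called 0 after adjustment, with 41 and 52 miRNAs at an unadjusted p under 0.05.

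Without control replicate 3, edgeR called 56 of 565 miRNAs (9.91%), 18 higher and 38 lower, and 3 of the 10 members. Of these, miR-532-5p and miR-501-3p were higher and miR-188-5p was lower in the overexpression group. At an unadjusted p under 0.05, edgeR then gave 4 members and 119 of all miRNAs (21.1%). The median log2 fold change of the members was then 0.11, against -0.0013 for all miRNAs. Without control replicate 1 or control replicate 2 in its place, the members' median was -0.034 and -0.012, and 5 of the 10 members were higher. Since the members were chosen from this contrast, nothing is read from these counts.

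The direction of several members depended on the scaling. With the library size alone in place of TMM, the median over all miRNAs moved to -0.11 and that of the members to -0.061, with 4 of 10 members above 0. Relative to the median of all miRNAs, the members' median was 0.051 higher under that scaling and 0.054 higher under TMM, and 7 members lay above it under both. This distance depended on single libraries under TMM. It was -0.0083 without overexpression replicate 1, with 4 members above, -0.015 without control replicate 1, -0.0089 without control replicate 2 and 0.12 without control replicate 3. miR-500a-5p, miR-501-3p and miR-502-3p were the members that passed from above 0 to below it.

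miR-532-5p, described in the literature as a repressor of the tumour suppressor RUNX3, had 2829, 3028 and 2661 TMM-scaled CPM for overexpression replicates 1 to 3, against 2251, 2227 and 2410 for control replicates 1 to 3. All overexpression samples were above all controls, and control replicate 3 was the highest control. The log2 fold change was 0.31 ± 0.083 (SE, n = 3 per group), and 0.32 without control replicate 3. With the library size alone it was 0.19 ± 0.089, and of the members only miR-188-5p then had an unadjusted p under 0.05 in edgeR. Over all 552 miRNAs tested, 70 did under that scaling, 69 of them lower, so nothing is read from this member. On the deposited TPM scale the groups overlapped, because control replicate 3 at 2621 TPM was above overexpression replicate 3 at 2573 TPM. Among all miRNAs tested, 8.88% had groups that did not overlap with overexpression higher on the TMM scale, and among the members 1 of 10 did, miR-532-5p. Without control replicate 3, 4 of 10 members did, namely miR-532-5p, miR-500a-3p, miR-501-3p and miR-502-3p, against 19.4% of all miRNAs tested.

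The opposite strand, miR-532-3p, had 145, 127 and 163 TMM-scaled CPM in the overexpression samples, against 144, 150.5 and 185 in the controls. The groups overlapped, with the lowest value in overexpression replicate 2 and the highest in control replicate 3. Its log2 fold change was -0.14 ± 0.13, and -0.043 without control replicate 3, or -0.26 with the library size alone. The strands of miR-532 thus had log2 fold changes of opposite sign. The log2 ratio of 3p to 5p was -4.29, -4.57 and -4.03 in the overexpression samples, against -3.96, -3.89 and -3.70 in the controls. Every overexpression sample was below every control, by 0.45 on average, and by 0.37 without control replicate 3. Among the 6 precursors of the locus with both strands tested, miR-532 was the only one whose ratios did not overlap, and the other 5 overlapped, with or without control replicate 3. Over all 135 precursors with both strands tested, 9.63% had a lower ratio in the overexpression group without overlap, and 20.7% without control replicate 3. This ratio does not depend on the scaling, but overexpression replicate 3 and control replicate 1 were close to each other.

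miR-188-5p has been described as a suppressor of growth and spread in hepatocellular carcinoma. Its levels were 32.8, 25.7 and 31.4 TMM-scaled CPM in the overexpression samples, against 41.5, 44.0 and 37.2 in the controls. All overexpression samples were below all controls, here and on the TPM scale, with overexpression replicate 2 the lowest of the 6. The log2 fold change was -0.45 ± 0.13, and -0.53 without control replicate 3. It was the only member with groups that did not overlap and overexpression lower, against 6.52% of all miRNAs tested, and it remained the only one without control replicate 3, against 19.2%. Its opposite strand miR-188-3p was also lower, at a log2 fold change of -0.48 ± 0.26, or from -0.71 to -0.27 when single samples were left out, with -0.60 without control replicate 3. At 3.27, 5.00 and 3.24 against 4.80, 6.82 and 4.38 TMM-scaled CPM the groups overlapped. On the TPM scale, at 3.26, 4.60 and 3.14 against 4.82, 7.03 and 4.76, they did not. With the library size alone, only 163 of 552 miRNAs had a log2 fold change above 0. The share of all miRNAs that separate on the TPM scale was not measured, so nothing is read from that scale for either strand.

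The 5p strands of the neighbouring precursors were also compared as a ratio, a measure chosen after the values were seen. It pairs the members with the highest and the lowest log2 fold change over all samples. Its separation therefore follows from that choice, and nothing is read from it. How often the ratios of other miRNA pairs separate was not measured. The log2 ratio of miR-188-5p to miR-532-5p counts was -6.43, -6.88 and -6.40 in the overexpression samples, against -5.76, -5.66 and -6.02 in the controls. The overexpression samples were all below the controls, and control replicate 3 was the control nearest to them. The group means differed by -0.76 on the log2 scale, and by -0.86 without control replicate 3. Against miR-660-5p, the other abundant member, the log2 ratio of miR-188-5p differed by -0.62 between the groups, or -0.64 without control replicate 3, and did not overlap. The log2 ratio of miR-532-5p to miR-660-5p differed by 0.14 and overlapped. Without control replicate 3 it differed by 0.22 and did not overlap.

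**Figure D3:**
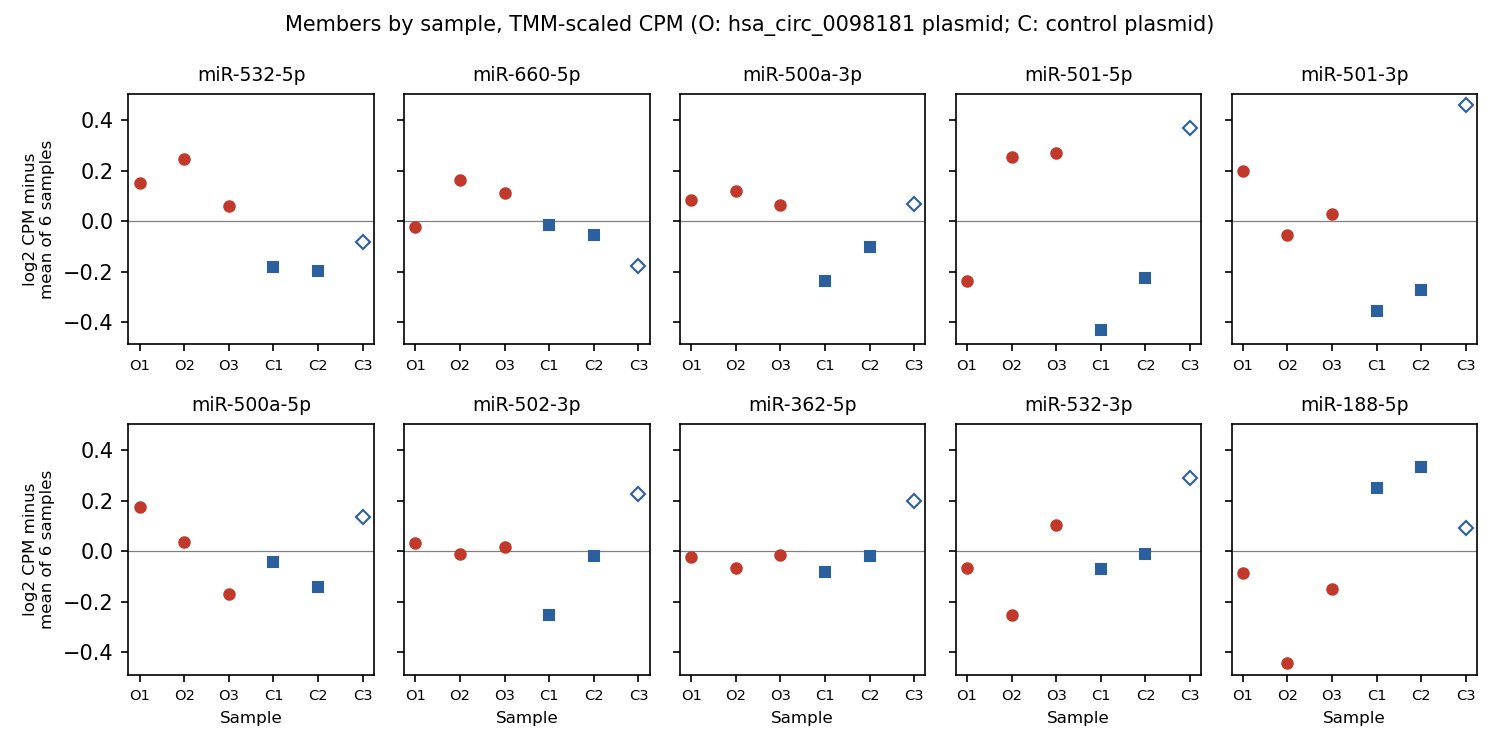
Each member in each sample, as log2 TMM-scaled CPM minus the mean of the 6 samples; O1 to O3 are overexpression and C1 to C3 control replicates, with C3 as an open diamond. miR-532-5p has all circles above the control symbols and miR-188-5p has all circles below them, while the open diamond is above both squares in 8 of the 10 panels.

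miR-660-5p, known as a repressor of the p53 antagonist MDM2, had 2298, 2617 and 2524 TMM-scaled CPM in the overexpression samples, against 2311, 2250 and 2066 in the controls. Overexpression replicate 1 lay among the controls, so the groups overlapped, and control replicate 3 was the lowest sample. The log2 fold change was 0.17 ± 0.086. It was 0.10 without control replicate 3, 0.051 with the library size alone and 0.089 without the most abundant miRNA in the library size.

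miR-500a-3p had 298, 305 and 294 TMM-scaled CPM in the overexpression samples, against 238, 262 and 294 in the controls. Control replicates 1 and 2 were below all overexpression samples, and control replicate 3 reached their level. The log2 fold change was 0.18 ± 0.10. It was 0.24 without control replicate 3 but 0.095 without control replicate 1, and 0.056 with the library size alone. miR-502-3p, which shares 20 bases with it, had 87.1, 84.5 and 86.2 TMM-scaled CPM in the overexpression samples, against 71.4, 84.1 and 99.6 in the controls. The overexpression samples were tightly grouped and lay inside the range of the controls, with a log2 fold change of 0.017 ± 0.12, and 0.13 without control replicate 3. The log2 fold change of miR-502-3p was -0.11 without control replicate 1 and -0.10 with the library size alone.

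miR-501-3p, with the same seed as miR-502-3p, had 35.0, 29.4 and 31.1 TMM-scaled CPM in the overexpression samples, against 23.8, 25.2 and 42.0 in the controls. Control replicate 3 was the highest of the 6 samples and control replicates 1 and 2 were the lowest. The log2 fold change was 0.079 ± 0.19 and turned on single libraries. It was 0.36 without control replicate 3, -0.081 without control replicate 1, -0.039 without control replicate 2 and -0.00068 without overexpression replicate 1. miR-501-5p, at 4.66, 6.54 and 6.61 against 4.06, 4.69 and 7.08 TMM-scaled CPM, was likewise highest in control replicate 3. Its log2 fold change was 0.19 ± 0.25. It was 0.43 without that library but 0.014 without control replicate 1, and 0.073 with the library size alone.

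The 2 members left differed by less than their standard errors. miR-500a-5p lay between 25.5 and 32.3 TMM-scaled CPM in the overexpression samples and between 25.9 and 31.4 in the controls, with a log2 fold change of 0.037 ± 0.13, and 0.094 without control replicate 3. Its sign turned on single libraries, to -0.052 without overexpression replicate 1 and -0.029 without control replicate 2. miR-362-5p, described as a repressor of the deubiquitinase CYLD in liver cancer, lay between 125 and 130 in the overexpression samples and between 124 and 151 in the controls. Its log2 fold change was -0.071 ± 0.11, and -0.0023 without control replicate 3, or -0.19 with the library size alone. Of the products outside the list, miR-362-3p had a log2 fold change of -0.035 ± 0.13 and miR-660-3p one of 0.067 ± 0.21, or -0.15 and 0.045 without control replicate 3. Both signs turned on single libraries. miR-362-3p was at 0.048 without overexpression replicate 1 and 0.069 without control replicate 1. miR-660-3p was at -0.026 without overexpression replicate 2, -0.056 without control replicate 2 and -0.044 with the library size alone.

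**Figure D4:**
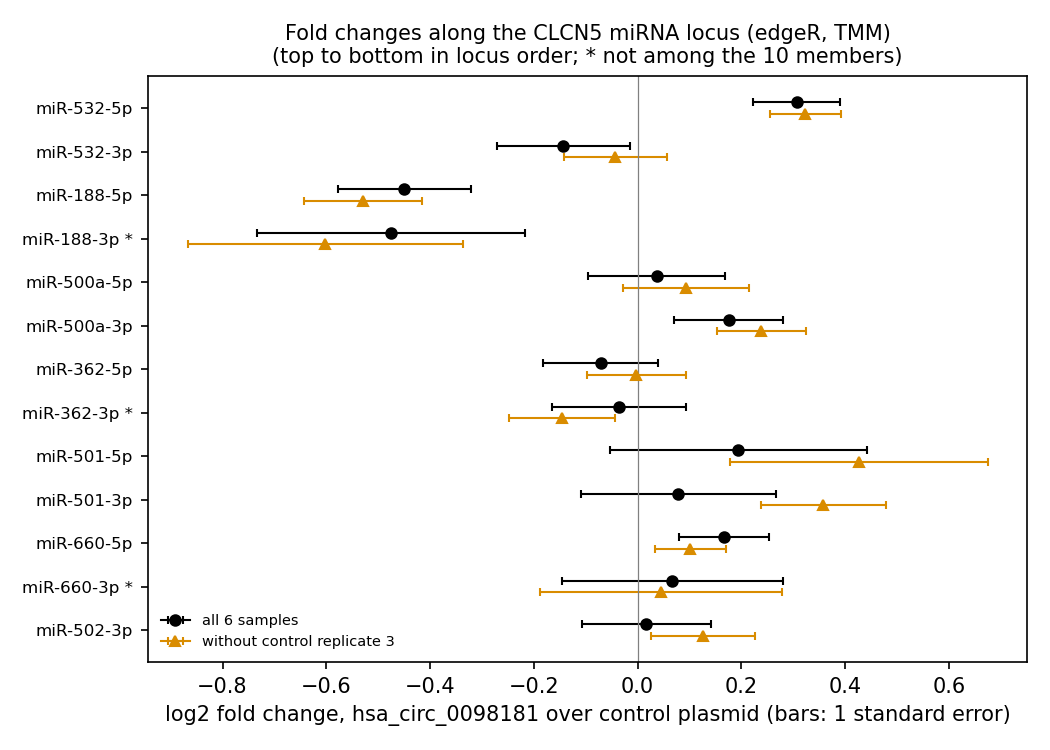
log2 fold change of each tested product in locus order, overexpression over control plasmid, from edgeR with TMM scaling; circles use all 6 samples, triangles leave out control replicate 3, and bars are 1 standard error. miR-532-5p lies at 0.31 and miR-188-5p at -0.45 with all samples, and miR-501-3p moves from 0.079 to 0.36 when control replicate 3 is left out.

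The summed level of the 10 members was 5891, 6379 and 5953 TMM-scaled CPM in the overexpression samples, against 5237, 5203 and 5323 in the controls. All overexpression samples were above all controls, by 0.21 on the log2 scale, and by 0.22 without control replicate 3. Among single miRNAs tested, 8.88% were higher without overlap on the TMM scale, or 19.4% without control replicate 3. How often such sums separate was not measured, so nothing is read from the separation. In TPM the sum was 5868, 5871 and 5756 in the overexpression samples, against 5260, 5367 and 5789 in the controls, or 0.526% to 0.587% of each library. On that scale control replicate 3 reached the overexpression samples, and the log2 difference was 0.093, or 0.13 without it. The sum mostly reflects miR-532-5p and miR-660-5p, which together made up 87.6% ± 0.824 of the members' counts in the overexpression samples and 85.7% ± 1.53 in the controls (SD, n = 3 each), or 86.6% on average in control replicates 1 and 2.

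Shares of the members' summed counts need no scaling between libraries. miR-188-5p made up 0.557%, 0.402% and 0.528% of the sum in the overexpression samples, against 0.793%, 0.846% and 0.699% in the controls. The groups did not overlap, with or without control replicate 3. The share of miR-532-3p was 2.39% ± 0.374 against 3.04% ± 0.385, and that of miR-362-5p 2.11% ± 0.128 against 2.56% ± 0.240 (SD, n = 3 each). In both, every overexpression sample was below every control, with or without control replicate 3, although for miR-532-3p overexpression replicate 3 at 2.74% almost met control replicate 1 at 2.76%. With all samples, the shares of the other members overlapped between the groups. How often such shares separate among miRNAs outside the locus was not measured, so nothing is read from the lack of overlap. miR-532-5p made up 46.7% ± 1.78 against 43.7% ± 1.37, with groups that overlapped only through control replicate 3. Shares of 1 sum are tied to each other, so a larger share of miR-532-5p lowers the rest. With miR-532-5p left out of the sum, the difference in share, in percentage points, was -0.451 for miR-188-5p (-0.283 with it), -0.929 for miR-532-3p (-0.649) and -0.588 for miR-362-5p (-0.449). For miR-660-5p it turned from -1.25 to 1.99 and for miR-500a-3p from -0.111 to 0.295. With miR-532-5p kept but control replicate 3 left out, the difference was -2.87 for miR-660-5p, whose groups then did not overlap, 0.134 for miR-500a-3p, -0.430 for miR-532-3p, -0.315 for miR-362-5p and -0.324 for miR-188-5p. Without control replicate 1 it was -0.214 for miR-660-5p.

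Other clusters held in 1 transcript were described in the same way. The cluster in an intron of MCM7, a DNA replication gene, gives miR-106b, miR-93 and miR-25. Of its 6 products, 5 were higher in the overexpression group and 1, miR-106b-5p, was lower, with a median log2 fold change of 0.10 and 0 called by edgeR, while 3 were higher with the library size alone. Without control replicate 3, the median was 0.17 and 2 of the 6 were called, against 9.91% of all miRNAs. Its products also differed among themselves, from -0.37 ± 0.12 for miR-106b-5p to 0.23 ± 0.067 for miR-25-3p, and from -0.50 to 0.24 without control replicate 3. On the TMM scale, miR-106b-5p was lower and miR-93-3p and miR-25-3p higher in the overexpression samples without overlap. Over all miRNAs tested, 6.52% were lower and 8.88% higher without overlap on that scale. As with the members, the cluster's summed level on that scale was above all controls in every overexpression sample. The log2 difference was 0.18, or 0.19 without control replicate 3. In TPM the sums overlapped with all samples. How often the sums of other clusters separate was not measured, so nothing is read from the separation under TMM. For the X-linked pair of miR-221 and miR-222, 3 of 4 products were higher, or 2 of 4 with the library size alone, with a median of 0.17 and 0 called. Without control replicate 3 all 4 were higher and again 0 were called. miR-18a-3p, the miRNA the study followed further, had a log2 fold change of 0.042 ± 0.11, and 0.079 without control replicate 3. Its sign turned with the scaling, to -0.074 with the library size alone and -0.036 without the most abundant miRNA in the library size. By RT-qPCR, a different method, the study reported less miR-18a-3p in Huh7 and Hep3B cells with hsa_circ_0098181.

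The miRNAs outside the locus that followed the summed members most closely were found among 298 with a mean of at least 10 CPM, by Pearson's r of log2 TMM-scaled CPM over the 6 samples. They were miR-25-3p (r = 0.987), miR-151a-3p (r = 0.986), miR-628-5p (r = 0.985), miR-215-5p (r = 0.966) and miR-191-5p (r = 0.961). Spearman's rho was 1 for miR-25-3p and miR-191-5p, 0.943 for miR-628-5p, 0.886 for miR-151a-3p and 0.771 for miR-215-5p. These samples form 2 groups and share library scaling, so the values describe likeness over 6 points and carry no test. Among the members, which are part of the sum, the same r was 0.972 for miR-532-5p and -0.976 for miR-188-5p. The other 8 ran from -0.509 for miR-532-3p to 0.799 for miR-660-5p, with miR-502-3p at 0.127 and miR-500a-5p at 0.170.

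The libraries were rich in miRNAs of hepatocyte-derived cells, but unevenly over the list. miR-122-5p, the liver's most typical miRNA, averaged 322041 TPM. miR-192-5p averaged 31458 and miR-194-5p 13354 TPM, but miR-122-3p only 189 and miR-885-5p only 17.4 TPM. The list of 5 summed to 366241, 384138 and 376807 TPM in the overexpression samples, against 372673, 355604 and 346895 in the controls. The log2 fold change of miR-122-5p was 0.19 ± 0.066, or 0.13 without control replicate 3 and 0.080 with the library size alone. The list of 6 blood cell miRNAs summed to 14.8, 13.3 and 13.8 TPM in the overexpression samples, against 17.2, 19.5 and 17.6 in the controls. These groups did not overlap, and the whole list stayed at a low level. How often such sums separate in TPM was not measured, so nothing is read from the separation. The list's most abundant member, miR-142-3p, averaged 11.7 TPM and thus made up most of the sum. Its log2 fold change was -0.50 ± 0.17, and -0.57 without control replicate 3. In that setting it was called by edgeR, as were 9.91% of all miRNAs. The other blood miRNAs tested, miR-223-3p and miR-150-5p, were at 0.45 ± 0.43 and 0.46 ± 0.42. The muscle list summed to 1.45 to 2.24 TPM, led by miR-1-3p. The smooth muscle and fibroblast list summed to 115 to 132 TPM, led by miR-143-3p, and the neuron list to 98.6 to 149 TPM, led by miR-9-5p. The endothelial list, whose miR-126-3p averaged 3180 TPM, summed to 3811 to 4341 TPM. Its lead miR-126-3p was higher in every overexpression sample, at 3271, 3244 and 3186 TPM against 3162, 3165 and 3053 in the controls. The log2 fold change was 0.16 ± 0.081, or 0.097 without control replicate 3 and 0.049 with the library size alone. It also separated on the TMM scale, as did 8.88% of all miRNAs tested, while miR-126-5p overlapped on both scales. The share that separates in TPM was not measured, so nothing is read from this marker. In TPM, the summed levels of the lists other than the blood list overlapped between the groups, with or without control replicate 3. These sums were not compared on the TMM scale. With TMM scaling, both endothelial miRNAs were higher, with a median log2 fold change of 0.18, or 0.049 without control replicate 3. No miRNA of these lists was at 0 throughout, and the part of these lists in the members' differences was not tested.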

How the data were processed

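miRNA sequencing of 6 Huh7 samples was used, grouped by the sample labels. The authors deposited counts of reads per mature miRNA, without normalization. TPM values deposited beside them equal the count scaled to the sample's total (CPM) to within 0.00303. The submitters' processing notes name hg38, TopHat2 2.0.9, TopHat and Bowtie; the handling of reads matching several miRNAs is not given in the sources used here, and would affect the miR-500 relatives most.

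Counts were compared in R 4.3.3 with edgeR 4.0.16 (quasi-likelihood test, two-sided, TMM factors, filterByExpr with a minimum count of 10 and total of 15, Benjamini-Hochberg over all miRNAs tested, threshold 0.05), tested first on simulated counts. Depth was 7144798 to 10786295 counts per sample. Ratios of strands had 0.5 added to each count. Sums, shares, ratios and likeness were computed with pandas 2.3.3 and numpy 2.4.6.

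The miRNAs named were the 10 members, the 6 other products of the locus, the MCM7 cluster, miR-221 and miR-222, miR-18a-3p, the 5 miRNAs most like the summed members, and marker lists. The members and lists were chosen with earlier results of these data known.

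Alternatives were DESeq2 1.42.0, limma 3.58.1 on log2 of CPM with 1 added, library size alone, upper-quartile factors, library size without the most abundant miRNA, omitting the filter, requiring 10 counts in each of the samples, the replicate number as a block, 5 added in place of 0.5, shares without miR-532-5p, and leaving out each sample in turn. Positions came from GENCODE release 29 and sequences from RefSeq (GRCh38.p14).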

Additional observations from a re-analysis of the deposited data

How the results depend on the processing

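With the library size alone, edgeR called 3 miRNAs, 4 members were higher, and the members' median was -0.061, with miR-500a-5p at -0.079, miR-501-3p at -0.044 and miR-502-3p at -0.10. Without the most abundant miRNA in the library size, 4 members were higher and the median was -0.023, with these at -0.042, -0.0040 and -0.064. The log2 difference of the summed members was 0.093 and 0.13 under these scalings. Without a filter, 6 miRNAs were called and miR-502-3p was at -0.0032. The median of all miRNAs shifted as well, to -0.11, -0.075 and -0.021 in these 3 settings, and the members' median stayed 0.051, 0.052 and 0.058 above it.

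Leaving out each sample in turn gave 0 to 56 miRNAs and 0 to 3 members called, both highest without control replicate 3, and a members' median from -0.034 to 0.11. The log2 fold change ran from -0.052 to 0.13 for miR-500a-5p, from -0.081 to 0.36 for miR-501-3p and from -0.11 to 0.13 for miR-502-3p. With a sample left out, miR-532-5p lay between 0.25 and 0.36 (0.19 with the library size alone) and miR-188-5p between -0.53 and -0.35. The other ranges were -0.23 to -0.043 for miR-532-3p, 0.095 to 0.24 for miR-500a-3p, 0.014 to 0.43 for miR-501-5p, -0.14 to -0.0023 for miR-362-5p and 0.10 to 0.21 for miR-660-5p.

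The main fit did not pair samples by their numbers, as the labels do not say whether same-numbered samples belong together. Correlations of deviations between same-numbered samples were -0.11, 0.16 and 0.21, which cannot settle this. With the replicate block, 0 miRNAs and 0 members were called by edgeR, 42 miRNAs had an unadjusted p under 0.05, and the members' median was 0.073. Depth limits miR-501-5p, miR-188-3p and miR-660-3p, which had the fewest counts among the tested products of the locus.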
